A study of Mus musculus with 4 samples.

Results

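The 34 genes described here make cholesterol and fatty acids, control that synthesis or export cholesterol, and were measured in mouse CD4 T cells among 19901 genes. They were found by the gene names of the array probes, older names included (Msmo1 is listed as Sc4mol), with a check by accession and without use of any measured value. Of the 34, 18 are enzymes of cholesterol synthesis (8 on the mevalonate branch up to squalene, 10 on the sterol branch after it), 5 control the sterol sensor, 1 carries sterols inside the cell, 8 make or desaturate fatty acids and 2 pump cholesterol out. Each had at least 1 probe, 64 in all, of which 61 passed the filter on dim probes, and 19 genes had more than 1 probe.

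CD4 cells from lymph node were grown for 4 days in plates coated with anti-CD3 at 1 ug/ml, which stimulates the T cell receptor, and were incubated for 3 days with cytokines. All 4 conditions held IL2 at 100 units/ml, a growth factor of activated T cells: IL2 alone (3 arrays), IL2 with TGFb at 4 ng/ml (3 arrays, "TGFb" below), IL2 with TGFb and IL6 at 25 ng/ml (4 arrays, "TGFb plus IL6") and IL2 with IL6 (3 arrays, "IL6"). TGFb turns activated CD4 cells into Foxp3-expressing regulatory T cells (Treg) in culture, and the title of the series names that conversion and its inhibition by IL6. Each of the 13 arrays carried a Treg and a T-effector sample in opposite dyes. The labels give no strain, age or genotype, leave out how Treg and T-effector cells were separated, and do not name separate cultures or animals behind the arrays, so the p-values measure the spread between arrays, which may be technical. In such bulk samples, fewer cells of a type and less RNA per cell cannot be told apart.

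Cholesterol is built from acetyl-CoA through mevalonate, isoprenoid diphosphates and squalene to lanosterol, which is then trimmed to cholesterol. SREBP transcription factors, held in the endoplasmic reticulum by Scap and the Insig proteins when sterols are plentiful, are released when sterols are low and switch on the enzymes of sterol synthesis and, mainly through the product of Srebf1, of fatty acid synthesis. Oxysterols act the other way through the LXR receptors, which switch on the export pumps Abca1 and Abcg1. Activated T cells raise lipid synthesis to build the membranes of daughter cells.

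The promoters of 4 sterol enzymes that fell together in T-effector samples are shown, with motifs known for SREBP targets marked where they occur. They are those of Hmgcs1 (chr13:119690101-119690350, plus strand), Idi1 (chr13:8885356-8885605, plus strand), Lss (chr10:76531355-76531604, plus strand) and Cyp51 (chr5:4104698-4104947, minus strand). Each is the stretch of 250 bases before the annotated start, from RefSeq on GRCm38.p6, read 5′ to 3′. Capitals mark TCACNCCAC (a sterol response element), CCAAT (the box bound by NF-Y) and GGGCGG (a GC box, bound by Sp1), each on either strand.
Hmgcs1: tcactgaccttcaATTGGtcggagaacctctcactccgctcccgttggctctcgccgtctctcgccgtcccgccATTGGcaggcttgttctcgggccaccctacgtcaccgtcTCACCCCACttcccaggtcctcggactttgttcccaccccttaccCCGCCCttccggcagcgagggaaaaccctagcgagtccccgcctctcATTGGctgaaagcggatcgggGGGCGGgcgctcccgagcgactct
Idi1: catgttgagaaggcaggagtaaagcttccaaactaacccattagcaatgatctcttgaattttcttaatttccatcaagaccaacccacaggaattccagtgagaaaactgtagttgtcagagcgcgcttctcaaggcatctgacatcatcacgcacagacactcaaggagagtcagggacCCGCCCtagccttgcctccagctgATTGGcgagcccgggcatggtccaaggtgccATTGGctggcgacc
Lss: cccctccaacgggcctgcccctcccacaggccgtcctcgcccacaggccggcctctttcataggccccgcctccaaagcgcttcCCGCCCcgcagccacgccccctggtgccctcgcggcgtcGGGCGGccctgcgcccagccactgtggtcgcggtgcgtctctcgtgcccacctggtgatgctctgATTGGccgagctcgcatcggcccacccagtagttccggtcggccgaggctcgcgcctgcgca
Cyp51: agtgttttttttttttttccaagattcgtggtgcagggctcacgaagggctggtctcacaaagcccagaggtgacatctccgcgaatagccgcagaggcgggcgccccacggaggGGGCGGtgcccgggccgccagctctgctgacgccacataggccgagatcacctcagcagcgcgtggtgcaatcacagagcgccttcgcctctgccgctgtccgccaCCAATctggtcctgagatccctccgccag

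The Hmgcs1 stretch held 1 sterol response element, 137 bases before the start, with 3 CCAAT boxes and 2 GC boxes. The other 3 held no TCACNCCAC, between 1 and 2 CCAAT boxes and between 1 and 2 GC boxes. The RefSeq table matched 26 of the 34 genes, with windows of 300 bases that reach 50 bases past each start. In these windows, CCAAT was found for 20 of the 26 genes and for 41.1% of all 27025 genes of the table, and GGGCGG for 22 of the 26 and for 38.2% of all. TCACNCCAC was found for 1 of the 26, Hmgcs1, and for 1.44% of all genes. With at most 1 letter changed it was found for 11 of the 26 and for 26.7% of all. A match describes letters only and is no evidence of binding.

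All 34 genes passed the filter, 33 of them with signals well above background in all 26 channels. The exception was Scd1, a desaturase, with 9 Treg channels and 11 T-effector channels that bright, and no channel of any of the 34 was saturated. Signals of different probes are not compared, and the brightest probe of each gene was tested. The labelled Treg samples carried the Treg markers: 4 of 5 (Foxp3, Il2ra, Ikzf2, Ctla4, Tnfrsf18) were higher in Treg with IL2, TGFb and IL6, and 3 of 5 with TGFb plus IL6. Of all genes, 7.41, 4.15, 3.76 and 3.5% were higher in that order. The arrays lay on 5 slides (A to E). Slides A (IL2 array 1, IL6 array 2) and C (IL2 array 3) held only arrays without TGFb. Slide B held only arrays with it (TGFb array 2, TGFb plus IL6 arrays 2 and 4). Slide D held IL2 array 2, TGFb array 3 and TGFb plus IL6 array 3. Slide E held TGFb array 1, TGFb plus IL6 array 1 and IL6 arrays 1 and 3. Effects of TGFb and of slide therefore cannot be fully told apart, and the main fits held no slide term. The share of the variance of the log ratio that followed the position on the array was 20.2 to 31.5% on slide E and 0.47 to 14.7% on the others. The Cy3 signal of negative control spots was 118 to 123 on slide B and 3.59 to 25.4 elsewhere.

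The 2 arrays of slide A, IL2 array 1 and IL6 array 2, stood apart in these genes. The median log2 ratio of Treg over T-effector of the 18 sterol enzymes was -0.73 and -0.85 there and lay between -0.20 and 0.19 on the other 11 arrays. Scd2, a desaturase that puts the double bond into saturated fatty acids, was also lowest there, at -2.86 and -4.12 against -0.63 to 0.62. The 7 measured markers of CD8 and NK cells moved with it: their median ratio was -0.98 and -0.96 on slide A and -0.23 to 0.46 elsewhere. Their part in the result was not tested, and the count of called genes among the 34 is also given without slide A for each comparison.

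With IL2 alone, 6 of the 34 genes were lower in Treg than in T-effector samples, against 3.56% of all 19901 genes, and all 6 were enzymes of cholesterol synthesis. None of the 34 was higher by limma's moderated test at an adjusted p under 0.05 (4 at an unadjusted p under 0.05, where 17.4% of all genes were), against 7.41% of all genes. Lss, which closes squalene epoxide into lanosterol, had log2 ratios of -0.94, -0.82 and -0.74 on IL2 arrays 1, 2 and 3. All 3 lay below 0, and the fit gave -0.84 ± 0.21 (SE; limma adjusted p = 0.0292), a Treg level of 0.557 times that of T-effector. Hmgcs1, which makes HMG-CoA at the head of the pathway, had ratios of -1.47, -0.06 and -0.33, lowest on array 1, with a fit of -0.74 ± 0.14 (limma adjusted p = 0.00873). Sqle, the epoxidase that opens the sterol branch, had the same shape at -1.37, -0.28 and -0.22, with a fit of -0.73 ± 0.15 (limma adjusted p = 0.0139). Cyp51, the demethylase of lanosterol, was more even at -0.68, -0.41 and -0.65, with a fit of -0.61 ± 0.13 (limma adjusted p = 0.0152). Idi1, which isomerises isopentenyl diphosphate, fitted at -0.60, and Fdft1, the squalene synthase, at -0.49. The median of the 18 sterol enzymes was -0.36, with 15 below 0, and that of all genes 0.02.

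The count with IL2 depended on single arrays: it was 2 without IL2 array 1, 2 without IL2 array 2, 3 without IL2 array 3 and 10 without IL6 array 2. The Idi1 call held in each of the 13 fits that left out 1 array. Its other probe had a mean ratio of -0.28 with IL2, against -0.54 for the tested one. The mean of its probes fitted at -0.48 (limma adjusted p = 0.0338). The calls of Lss and Cyp51 ended without any 1 of the 3 IL2 arrays (adjusted p = 0.0625 to 0.15), that of Sqle without IL2 array 1 or 2 (0.0593 to 0.148) and that of Hmgcs1 without IL2 array 1 (log2 ratio -0.46, adjusted p = 0.0908). With the mean of all its probes Lss was at -0.54 (limma adjusted p = 0.0557). That of Fdft1 ended without any 1 of 8 arrays, the 3 of IL2, TGFb array 3, TGFb plus IL6 arrays 2, 3 and 4 and IL6 array 3 (adjusted p = 0.0509 to 0.217). Without slide A, 5 of the 6 stayed lower, Fdft1 being at -0.35 (adjusted p = 0.0571), and the sterol median was -0.10; 4.83% of all genes were lower in that fit. In it 6 genes were higher in Treg, against 7.81% of all genes, none of them a synthesis enzyme: Srebf1 (1.06), Srebf2 (0.85), Abca1 (0.70), Stard4 (0.57), Abcg1 (0.42) and Insig1 (0.35). The other probes of Srebf2, Stard4 and Insig1 were not fitted without slide A. Over all 3 IL2 arrays their mean ratios were -0.23, -0.07 and -0.07 (Srebf2), -0.41 and -0.54 (Stard4) and -0.39 (Insig1). The tested probes of Srebf2, Stard4 and Insig1 had means of -0.14, 0.24 and -0.08 there.

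With IL6, 3 of the 34 were lower in Treg, against 2.08% of all genes: Hmgcs1, Sqle and Idi1. Abca1 was the only one higher, against 3.76% of all genes. Hmgcs1 had ratios of -1.24, -1.62 and -0.74 on IL6 arrays 1, 2 and 3, all well below 0, with a fit of -1.08 ± 0.14 (limma adjusted p = 0.00159) that held whichever array was left out. The 2 other probes of Hmgcs1 fitted at -0.39 and -0.18 and did not pass, and the mean of its probes at -0.55 (limma adjusted p = 0.0345). Sqle had -0.55, -1.46 and -0.57, with a fit of -0.75 ± 0.15 (limma adjusted p = 0.0182). Idi1 had -0.62, -1.02 and -0.09, with a fit of -0.52 ± 0.10 (limma adjusted p = 0.0167). The Sqle call ended without IL6 array 2 or 3 (adjusted p = 0.0821 to 0.188), the Idi1 call without IL6 array 2 (log2 ratio -0.36, adjusted p = 0.0608) and with the mean of its probes (-0.35, adjusted p = 0.13), and the count was 2 without IL6 array 3. The sterol median was -0.31, with 15 of 18 below 0, and -0.07 without slide A, where the same 3 genes were lower, against 3.33% of all genes, and 4 were higher (Abca1, Stard4, Srebf1 and Hsd17b7), against 5.35%. Over all IL6 arrays the other probes of Stard4 had mean ratios of -0.61 and -0.57, against 0.34 for the tested one. The other probe of Hsd17b7 was at -0.42, against 0.26. In the authors' deposited table, which gives 1 value per condition on an unstated scale, 16 of the 18 sterol enzymes lay below 0 with IL2 and 16 with IL6, but 6 with TGFb and 6 with TGFb plus IL6.

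With TGFb the sterol enzymes lay on the other side of 0: their median was 0.18, with 13 of 18 above 0, and with TGFb plus IL6 it was 0.13, with 12 of 18 above 0. The first was 0.10 without TGFb array 1, 0.09 without TGFb array 2 and 0.14 without slide A, and the second 0.07 without array 1 of TGFb plus IL6. These are fitted values that include the dye term, and Treg was in Cy5 on 1 of 3 TGFb arrays. On the single arrays the sterol median was 0.05, 0.11 and 0.13 with TGFb and 0.19, 0.16, 0.16 and 0.08 with TGFb plus IL6. Few single genes passed. With TGFb, 1 of 34 was higher, against 4.15% of all genes, and 1 lower, against 1.83%. With TGFb plus IL6, 1 of 34 was higher, against 3.5%, and 1 lower, against 2.34%. Hsd17b7, a ketoreductase of the sterol branch, was the higher gene in both. Its ratios were 1.42, 0.79 and 0.74 with TGFb, for a fit of 0.97 ± 0.22 (limma adjusted p = 0.0258), and 1.11, 0.84, 0.67 and 0.68 with TGFb plus IL6, for 0.83 ± 0.19 (limma adjusted p = 0.0277). The other probe of Hsd17b7 fitted at 0.05 and 0.20 and passed in neither condition, and the mean of both probes was 0.51 in each (limma adjusted p = 0.118 and 0.069). Idi1 was lower with TGFb at -0.64, -0.64 and -0.37, for a fit of -0.49 ± 0.10 (limma adjusted p = 0.0172), while its other probe fitted at 0.28 and the mean of both at -0.11 (limma adjusted p = 0.72). The Hsd17b7 call with TGFb and the Idi1 call ended without any 1 of the 3 TGFb arrays (adjusted p = 0.0588 to 0.232), and the Hsd17b7 call with TGFb plus IL6 without any 1 of its 4 arrays (adjusted p = 0.075 to 0.181). The counts were 0 without any 1 TGFb array and 4 without IL6 array 2 with TGFb, and 0, 1, 0, 0 and 7 without arrays 1 to 4 of TGFb plus IL6 and without IL6 array 2 with TGFb plus IL6. Without slide A they rose to 6 higher and 2 lower with TGFb and to 8 higher and 3 lower with TGFb plus IL6, where 7.2 and 7.01% of all genes were higher and 4.24 and 6.93% lower.

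**Figure D1:**
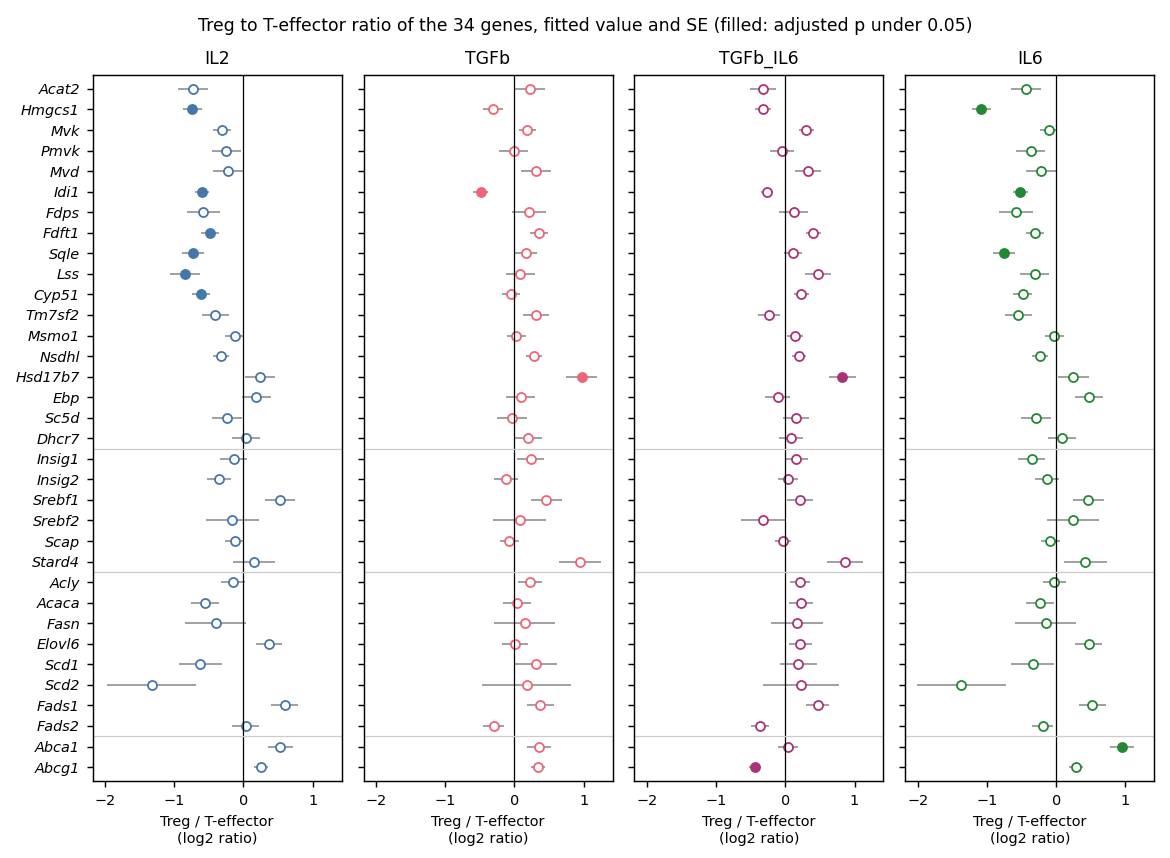
Fitted log2 ratio of Treg over T-effector (x axis) for each of the 34 genes (y axis, grouped by role with grey lines between sterol enzymes, control and transport, fatty acid genes and export pumps) in the 4 conditions, with the standard error as a bar and filled points for an adjusted p under 0.05. Most sterol enzymes lie left of 0 with IL2 and IL6 and right of it with TGFb and TGFb plus IL6, and the fatty acid genes hold no filled point.

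**Figure D2:**
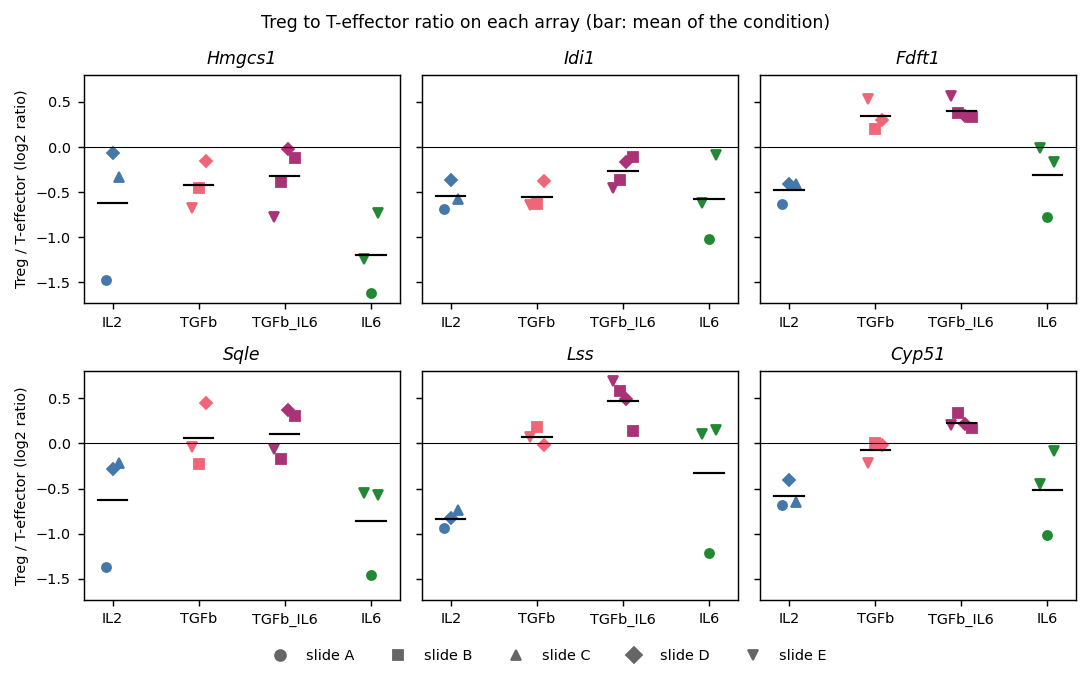
Log2 ratio of Treg over T-effector on each array (y axis) by condition (x axis) for 6 sterol enzymes, with the slide as the marker shape and the mean of the condition as a bar. The circles of slide A are the lowest values of IL2 and of IL6 in each panel, and Fdft1 lies above 0 on all 7 arrays with TGFb.

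The differences between conditions in this ratio were tested directly. Comparisons that share a condition share its arrays. From IL2 to TGFb, 2 of 34 ratios were higher, against 2.36% of all genes, and 0 lower (0 at an unadjusted p under 0.05), against 3.51%. Fdft1 went from ratios of -0.63, -0.41 and -0.41 with IL2 to 0.53, 0.20 and 0.30 with TGFb, with no overlap, a difference of 0.84 ± 0.19 (limma adjusted p = 0.0287). Sqle went from -1.37, -0.28 and -0.22 to -0.04, -0.22 and 0.45, a difference of 0.90 ± 0.22 (limma adjusted p = 0.0385). In the pair of arrays that share slide D and dye, the differences were 0.71 for Fdft1 and 0.74 for Sqle. In that pair 11 of the 18 sterol enzymes differed upward, with a median of 0.26. The Fdft1 call ended without IL2 array 1 or 2, TGFb array 1 or 3 or TGFb plus IL6 array 3 (adjusted p = 0.051 to 0.129). The Sqle call ended without any 1 of 10 arrays, all but IL2 array 3 and IL6 arrays 1 and 2 (adjusted p = 0.0505 to 0.181). The count ran from 0 (without IL2 array 1 or 2, TGFb array 1 or 3 or TGFb plus IL6 array 3) through 1 (without TGFb array 2, TGFb plus IL6 array 1 or 2 or IL6 array 3) to 4 without IL6 array 1 and 5 without IL6 array 2. Without slide A, Fdft1 (0.67) and Lss (0.74) passed, against 3.17% of all genes, and Sqle was at 0.57 (limma adjusted p = 0.0594). Of the 18 sterol enzymes, 17 differed upward, with a median of 0.55 against -0.02 for all genes and 0.25 without slide A.

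From IL6 to TGFb plus IL6, 4 of 34 ratios were higher, against 1.51% of all genes, and 1 lower, against 2.48%. The 4 were Sqle (0.86 ± 0.20, limma adjusted p = 0.041), Hmgcs1 (0.76 ± 0.18, 0.0455), Cyp51 (0.72 ± 0.17, 0.0443) and Fdft1 (0.71 ± 0.17, 0.0455). All lie close to the threshold, and with the mean of its probes Hmgcs1 was at 0.53 (limma adjusted p = 0.106). The pair of arrays that share slide E and dye gave 0.48, 0.47, 0.64 and 0.57 for them in that order. In that pair 14 of the 18 sterol enzymes differed upward, with a median of 0.22. Leaving out 1 array ended the Sqle call for 10 of the 13 arrays (all but IL2 arrays 1 and 3 and IL6 array 1), the Hmgcs1 call for 10 (all but IL2 arrays 1 and 2 and IL6 array 1), the Cyp51 call for 11 (all but IL6 arrays 1 and 3) and the Fdft1 call for 11 (all but IL2 array 1 and IL6 array 1), with adjusted p of 0.0509 to 0.162. The count of 5 fell to 2 without IL2 array 2 or 3 or TGFb plus IL6 array 2, to 1 without any 1 TGFb array, TGFb plus IL6 array 4 or IL6 array 2 or 3, and to 0 without TGFb plus IL6 array 1 or 3. Without slide A, 3 were higher, Cyp51 being at 0.50 (limma adjusted p = 0.0663), against 1.57% of all genes, and 2 lower, Abcg1 and Abca1, against 3.14%, and the sterol median was 0.23 in place of 0.44. Between IL2 and IL6, none of the 34 ratios differed (0 at an unadjusted p under 0.05), and of all genes 0% were higher and 0% lower in limma's test, with 1 of the 34 called without IL6 array 2 and 0 without slide A. Between TGFb and TGFb plus IL6, 0 of 34 were higher (0 at an unadjusted p under 0.05), against 0.1% of all genes, and 1 was lower, against 0.191%: the pump Abcg1, described with the export genes. It was also the 1 called without slide A.

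Read channel by channel, the comparison with the most called genes of the 16 was that of IL6 with TGFb plus IL6 in T-effector samples. There, 10 of the 33 genes of this fit (Fads2 was missing on 1 array) were lower with TGFb plus IL6, against 6% of 19766 genes, and 2 were higher, against 5.21%. Of the 10, 9 were sterol enzymes and the other was Acly. Hmgcs1 had T-effector log2 signals of 12.90, 12.30 and 12.25 with IL6 and 11.93, 11.14, 11.40 and 10.79 with TGFb plus IL6. The groups did not overlap, and the difference was -1.12 ± 0.25 (limma adjusted p = 0.00454), a level of 0.462 times. Lss went from 8.88, 8.87 and 8.84 to 7.78, 8.0, 7.73 and 8.15, also without overlap, for -0.95 ± 0.24 (limma adjusted p = 0.0122). Pmvk, which adds the second phosphate to mevalonate, went from 11.20, 11.75 and 11.70 to 10.31, 10.69, 10.65 and 10.90, for -0.92 ± 0.22 (limma adjusted p = 0.00716).

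Fdft1 went from 11.08, 10.92 and 10.98 to 10.04, 10.17, 9.98 and 10.18, for -0.90 ± 0.16 (limma adjusted p = 0.000736). The 4 values with TGFb plus IL6 all lie below the 3 with IL6. Cyp51 (-0.88), Nsdhl (-0.73) and Msmo1 (-0.58), which with Cyp51 strip the extra methyl groups of lanosterol, fell too, as did Idi1 (-0.71) and Mvk, the mevalonate kinase (-0.56). Acat2, an enzyme named for making acetoacetyl-CoA, went the other way, from 8.25, 8.74 and 8.54 to 8.77, 9.44, 9.32 and 9.66, for 0.77 ± 0.25 (limma adjusted p = 0.0461). The median of the 18 enzymes was -0.60, with 15 below 0, and that of all genes 0.01. The 6 sterol enzymes that passed in none of the 16 comparisons were Mvd, Fdps, Tm7sf2, Ebp, Sc5d and Dhcr7. Here they had fits of -0.50, -0.75, -0.62, 0.58, 0.07 and -0.35 in that order. Fdps, which makes farnesyl diphosphate, passed without slide A (-0.93, limma adjusted p = 0.00242), as did Mvd, the decarboxylase of mevalonate diphosphate (-0.51, limma adjusted p = 0.0238).

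The calls of Fdft1, Lss, Cyp51, Pmvk, Hmgcs1 and Idi1 held in each of the 13 fits that left out 1 array. Those of Msmo1, Nsdhl and Mvk ended without 2, 3 and 4 of the arrays, all from the 2 conditions compared (TGFb plus IL6 array 2 and IL6 array 1 for each, IL6 array 3 for Nsdhl and Mvk, and TGFb plus IL6 array 3 for Mvk; adjusted p = 0.0508 to 0.0987). Those of Acly (TGFb array 3, TGFb plus IL6 arrays 1, 2 and 3, IL6 arrays 2 and 3; 0.0559 to 0.17) and Acat2 (IL2 arrays 2 and 3, TGFb array 3, TGFb plus IL6 arrays 2, 3 and 4, IL6 arrays 1 and 3; 0.0542 to 0.132) ended more often. The count of 12 was 7 without TGFb plus IL6 array 2, 16 without slide A (2 higher and 14 lower, against 5.27 and 6.08% of all genes), 6 without slide B and 5 without slide E, where IL6 keeps 1 array that is assumed to vary like the others. The calls of Hmgcs1 and Idi1 ended without slide B (log2 differences -0.75 and -0.58, limma adjusted p = 0.102 and 0.0869). Without slide E their differences were -0.98 and -0.59. On the pair that share slide E and dye, 16 of 18 enzymes were lower, with a median of -0.65. Other probes passed in the same direction for Cyp51 (2 of 2), Nsdhl (3 of 3), Pmvk (1 of 1) and Lss (1 of 2). For Idi1 and Mvk the mean of all probes was -0.62 and -0.515 (limma adjusted p = 0.00708 and 0.0458). The 2 other probes of Hmgcs1 were at -0.37 and -0.36 and did not pass, and the mean of its probes was -0.61 (limma adjusted p = 0.00764).

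**Figure D3:**
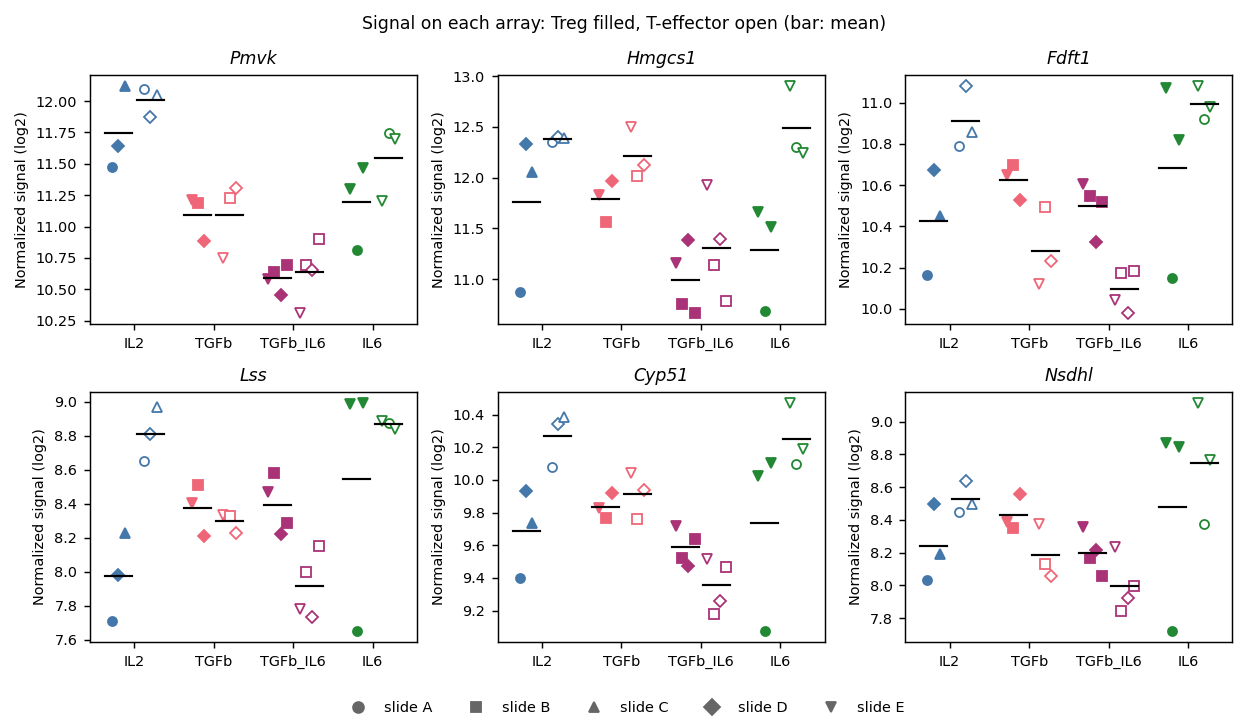
Log2 signal on each array (y axis, scaled to each gene) by condition (x axis) for 6 sterol enzymes, with Treg as filled and T-effector as open markers, the slide as the marker shape and the mean as a bar. For Fdft1, Lss, Cyp51 and Nsdhl the open markers of TGFb plus IL6 lie below those of IL6 without overlap, and the filled circles of slide A lie below the other Treg values of IL2 and IL6.

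Other comparisons of T-effector samples called fewer genes. From IL2 to TGFb, 2 genes were lower in T-effector samples, against 2.42% of all genes, and 1 higher, against 1.89%. Pmvk went from 12.09, 11.87 and 12.05 to 10.75, 11.23 and 11.31 (-0.90 ± 0.23, limma adjusted p = 0.0284) and Fdft1 from 10.79, 11.08 and 10.86 to 10.12, 10.50 and 10.23 (-0.63 ± 0.18, limma adjusted p = 0.0435), neither with overlap. The Pmvk call ended without any 1 IL2 array or TGFb array 1 (adjusted p = 0.0511 to 0.153) and the Fdft1 call without any 1 of 10 arrays, all but TGFb array 2 and IL6 arrays 1 and 2 (0.0563 to 0.199). The count of 3 was 1 without any 1 IL2 array, without TGFb array 1, without slide B and without slide E, 5 without IL6 array 2, and 4 without slide A (1 higher and 3 lower, against 1.63 and 2.29% of all genes). Of the 18 enzymes, 15 lay below 0, with a median of -0.30.

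From TGFb to TGFb plus IL6, Hmgcs1 and Idi1 were lower in T-effector samples (2 of 33, against 3.23% of all genes) and Acat2 and Abcg1 higher (2 of 33, against 4.28%). Hmgcs1 fell by 0.84 ± 0.25 (limma adjusted p = 0.0411) from 12.50, 12.01 and 12.12, and with the mean of its probes it was at -0.38 (limma adjusted p = 0.142). Idi1 fell by 0.62 ± 0.15 (limma adjusted p = 0.0129) from 12.58, 12.61 and 12.58 to 12.21, 11.78, 11.91 and 11.85, without overlap. Acat2 rose by 1.13 ± 0.25 (limma adjusted p = 0.00464) from 7.66, 8.34 and 8.45. Arrays 1, 2 and 3 of these 2 conditions are pairs on a slide, and with the pair as a replicate block Hmgcs1 did not pass (-0.70, limma adjusted p = 0.0932) while the other 3 did. On the pairs of slides B, D and E, 15, 15 and 14 of 18 enzymes were lower. Leaving out 1 array ended the Hmgcs1 call for 6 arrays (IL2 array 3, TGFb arrays 1 and 3, TGFb plus IL6 arrays 2 and 4, IL6 array 3; adjusted p = 0.0554 to 0.204), the Idi1 call for 2 (TGFb array 3, TGFb plus IL6 array 2; 0.0702 to 0.102) and the Acat2 call for TGFb array 1 (log2 difference 0.90, adjusted p = 0.0531). The count of 4 was 1 without TGFb array 1 or 3, 2 without TGFb plus IL6 array 2 or 4, 10 without slide A (2 higher and 8 lower, against 5.86 and 4.66% of all genes), 0 without slide B and 2 without slide E. From IL2 to IL6, 0 of 33 were lower (0 at an unadjusted p under 0.05), against 0.42% of all genes, and 1, Abcg1, was higher, against 0.395%.

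In Treg samples the calls differed with and without slide A. From IL6 to TGFb plus IL6, 2 of 33 were higher, against 4.87% of all genes, and 1 lower, against 5.21%. Acat2 went from 8.54, 8.02 and 7.77 to 8.91, 8.99, 8.69 and 9.33, without overlap, for 0.89 ± 0.25 (limma adjusted p = 0.0225). Sqle went from 10.40, 9.58 and 10.08 to 10.48, 10.58, 10.62 and 10.76, without overlap, for 0.54 ± 0.17 (limma adjusted p = 0.0489). Abca1 was the lower one. The Sqle call ended without any 1 of 11 arrays, all but IL2 array 1 and IL6 array 1 (adjusted p = 0.051 to 0.251), and the Acat2 call without TGFb plus IL6 array 4 or IL6 array 2 or 3 (0.062 to 0.176). The count of 3 was 1 without TGFb plus IL6 array 4, 0 without IL6 array 3 and 9, all lower, without IL6 array 2. Without slide A, 15 of 34 were lower, against 6.88% of all genes, and 0 higher, among them Idi1 (-0.73), Nsdhl (-0.66), Lss (-0.60) and Fdft1 (-0.45), and the sterol median was -0.46 in place of -0.16. On the pair that share slide E and dye, 15 of the 18 enzymes were lower in Treg too, with a median of -0.47.

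From IL2 to TGFb, 2 of 33 were higher in Treg, against 3.68% of all genes, and 0 lower (1 at an unadjusted p under 0.05), against 4.13%. Sqle went from 9.69, 10.47 and 10.60 to 10.74, 10.93 and 11.03, without overlap, for 0.76 ± 0.18 (limma adjusted p = 0.0109), and Abcg1 was the other. The Sqle call ended without IL2 array 1 or TGFb array 2 (adjusted p = 0.0576 to 0.112). On the pair that share slide D and dye, 8 of the 18 sterol enzymes were higher in Treg, with a median of -0.04. The count was 4 without IL2 array 1, where 3 were lower, 1 without TGFb array 2, 5 without slide A, where 3 were lower (Pmvk, Srebf1 and Srebf2, against 5.87% of all genes) and 2 higher (against 4.38%), and 1 without slide B. From TGFb to TGFb plus IL6, Hmgcs1 was the 1 lower gene, against 2.73%, and 0 were higher (1 at an unadjusted p under 0.05), against 2.85%. It fell by 0.86 ± 0.25 (limma adjusted p = 0.0462) from 11.82, 11.56 and 11.97 to 11.16, 10.75, 11.38 and 10.66, without overlap, but did not pass with the pair as a replicate block (-0.71, adjusted p = 0.103), with the mean of its probes (-0.39, adjusted p = 0.147) or without any 1 of 8 arrays (all but IL2 arrays 1 and 2, TGFb plus IL6 array 1 and IL6 arrays 1 and 2; adjusted p = 0.0591 to 0.199). The count was 0 without any 1 of those 8 arrays, 3 without IL2 array 1, 2 without IL2 array 2 or IL6 array 2, 6, all lower, without slide A (4.22% of all genes) and 0 without slide B. From IL2 to IL6, 1 of 33 was higher, against 0.41%, and 0 lower (1 at an unadjusted p under 0.05), against 0.551%, and the 1 was Abcg1.

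The 5 genes of SREBP control (Insig1, Insig2, Srebf1, Srebf2, Scap) and the sterol carrier Stard4 passed in none of the 16 comparisons by limma's test. In the ratio within conditions, 1 of the 6 was higher at an unadjusted p under 0.05 with IL2, TGFb and TGFb plus IL6 and 0 with IL6, where 17.4, 10.7, 9.85 and 12.5% of all genes were, and in the T-effector and Treg comparisons of IL6 with TGFb plus IL6, 1 each was lower, where 12.4 and 11.4% of all genes were. Srebf1, which encodes the SREBP form linked to fatty acid synthesis, had Treg over T-effector ratios of -0.10, 0.70 and 0.96 with IL2, 0.84, 0.36 and 0.22 with TGFb, 0.55, 0.29, 0.03 and -0.03 with TGFb plus IL6, and 1.00, 0.02 and 0.39 with IL6. Its lowest values with IL2 and IL6 are those of slide A, and without that slide it was higher in Treg with IL2 (1.06, adjusted p = 0.00121), IL6 (0.69, 0.00829) and TGFb (0.40, 0.0351). Stard4 had fitted ratios of 0.15, 0.95, 0.86 and 0.42 with IL2, TGFb, TGFb plus IL6 and IL6, but its 2 other probes lay below 0 with IL2, TGFb and IL6. In T-effector samples between IL6 and TGFb plus IL6 all 3 probes lay below 0, at -0.93 for the tested one and -0.72 and -0.88 for the others, which passed (limma adjusted p = 0.00136 and 0.0283). Srebf2 was alike: the tested probe was at -0.26 in that comparison, and the 3 others were lower, at -1.13, -0.47 and -0.36, and passed. Insig1, the sterol-dependent anchor of SREBP, was at -0.24, and its other probe was lower at -0.46 and passed (adjusted p = 0.0194). Insig2 and Scap had fitted ratios between -0.36 and 0.04 in the 4 conditions. Another probe of Insig2, well above background in all 26 channels, had mean ratios of 0.033, 0.089, 0.259 and 0.468 with IL2, TGFb, TGFb plus IL6 and IL6. The tested probe had means of -0.401, -0.074, 0.04 and -0.089.

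None of the 8 fatty acid genes passed in the 8 comparisons of the ratio, in which 2 each with IL2, IL6 and TGFb plus IL6 reached an unadjusted p under 0.05 and 0 in the others. Of all genes, 28.1, 22.3 and 20.6% reached it in those 3. Acly, which splits citrate into cytosolic acetyl-CoA for both pathways, was the 1 called in a comparison of conditions. In T-effector samples it went from 8.80, 9.15 and 9.18 with IL6 to 8.37, 8.44, 8.4 and 8.60 with TGFb plus IL6, without overlap, for -0.59 ± 0.18 (limma adjusted p = 0.0381). It lost the call without any 1 of TGFb array 3, TGFb plus IL6 arrays 1, 2 and 3 and IL6 arrays 2 and 3. Scd1 and Scd2 were not called between conditions in the main fits. From TGFb to TGFb plus IL6, T-effector Scd1 differed by -0.883, -0.964 and -0.793 on the pairs of slides B, D and E. Scd2 differed by -0.843, -1.157 and -0.577, and both were also lower in Treg on these pairs. T-effector signals of Scd2 were 12.608 to 13.448 with IL6 and 11.661 to 12.243 with TGFb plus IL6, without overlap. Fasn, the fatty acid synthase, had ratios of -1.45, -0.28 and 0.49 with IL2 and 1.06, -1.09 and -0.39 with IL6, a wide spread among arrays of 1 condition. Scd2 had fitted ratios of -1.33 with IL2 and -1.37 with IL6 that did not pass, and 0.18 and 0.23 with TGFb and TGFb plus IL6. Fads1, which desaturates polyunsaturated fatty acids, was above 0 on all 13 arrays, from 0.03 to 1.32, with fits of 0.60, 0.38, 0.47 and 0.52 that did not pass. Acaca, which makes malonyl-CoA, had fits of -0.55, 0.03, 0.22 and -0.24 with IL2, TGFb, TGFb plus IL6 and IL6. Its 3 other probes, well above background in 10 to 21 of 26 channels, did not show this. Their mean ratios were -0.099 to 0.125 with IL2 and -0.145 to 0.073 with TGFb plus IL6. The desaturases Scd1 and Fads2 lay between -0.62 and 0.31 and between -0.36 and 0.03 over the 4 conditions, and the elongase Elovl6 between 0.01 and 0.47. The median of the 8 was -0.27 with IL2, 0.16 with TGFb, 0.21 with TGFb plus IL6 and -0.18 with IL6. On the arrays of slide A it was -0.74 and -0.66, and on the other arrays of IL2 and IL6 between -0.09 and 0.21. Without slide A the 4 medians were 0.14, 0.04, 0.21 and 0.10, all above 0. In that fit 1 of the 8 was higher in Treg with TGFb and 2 with TGFb plus IL6, against 7.2 and 7.01% of all genes. From IL6 to TGFb plus IL6, 2 were lower in Treg and 2 in T-effector samples, against 6.88 and 6.08%. From TGFb to TGFb plus IL6, 1 was lower in Treg and 2 in T-effector samples, against 4.22 and 4.66%. The other comparisons called none. With all arrays, in T-effector samples from IL6 to TGFb plus IL6, all 7 measured fatty acid genes lay below 0, with a median of -0.40.

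Of the export pumps, Abcg1, which passes cholesterol to lipoprotein particles, rose with TGFb in both cell types. In T-effector samples its log2 signal was 7.96, 7.94 and 7.92 with IL2, 8.64, 8.31 and 8.53 with IL6, 9.01, 9.04 and 8.97 with TGFb and 9.52, 9.31, 9.48 and 9.40 with TGFb plus IL6. The 4 conditions did not overlap and kept that order. The rise from IL2 to TGFb was 1.07 ± 0.12 (limma adjusted p = 7.73e-06) and from IL6 to TGFb plus IL6 0.93 ± 0.11 (limma adjusted p = 6.11e-06), and both held whichever array was left out and without slide A, B or E.

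In Treg samples Abcg1 was at 7.97, 8.46 and 8.14 with IL2, 8.84, 8.69 and 8.81 with IL6, 9.44, 9.43 and 9.17 with TGFb and 9.12, 8.97, 8.92 and 8.96 with TGFb plus IL6. The order differs at the top: TGFb stood highest, 1.15 ± 0.12 above IL2 (limma adjusted p = 8.73e-07, held whichever array was left out), and TGFb plus IL6 did not differ from IL6 beyond the threshold (0.21) or from TGFb (-0.35). IL6 alone was above IL2 by 0.59 ± 0.12 in Treg (limma adjusted p = 0.0179) and 0.56 ± 0.12 in T-effector samples (limma adjusted p = 0.0276). These 2 calls ended without IL2 array 1 in Treg only, IL2 array 3, IL6 array 1 or IL6 array 3 in both, and TGFb plus IL6 array 3 in T-effector samples only (adjusted p = 0.051 to 0.205), which takes the 2 counts of 1 to 0, and the Treg count was 5 without IL6 array 2. Without slide A the counts were 2 in Treg, both higher (1.07% of all genes), and 1 in T-effector samples, higher (0.408%), and without slide B or E they were 0.

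Under TGFb plus IL6 the Treg level of Abcg1 lay below that of T-effector samples. Abcg1 had Treg over T-effector ratios of -0.40, -0.34, -0.56 and -0.44 there, all below 0, and of 0.43, 0.39 and 0.20 with TGFb, 0.20, 0.38 and 0.28 with IL6 and 0.01, 0.52 and 0.22 with IL2, all above 0. The ratio with TGFb plus IL6 was -0.44 ± 0.085 (limma adjusted p = 0.0128), and it differed from that with TGFb by -0.77 ± 0.13 (limma adjusted p = 0.0403) and from that with IL6 by -0.72 ± 0.13 (limma adjusted p = 0.0183). On the 3 pairs of arrays of slides B, D and E the first difference was -0.73, -0.76 and -0.83. The call against TGFb, in a comparison with few called genes, ended with the pair as a replicate block (-0.78, adjusted p = 0.112) and without any 1 of 9 arrays, all but IL2 arrays 1 and 2 and IL6 arrays 1 and 2 (adjusted p = 0.0639 to 0.203), which takes the count of 1 to 0. That call also ended with the Agilent processed signals (limma adjusted p = 0.0745), under median centring (0.273) and without slide B (0.863) or E (0.266). The call against IL6 ended without TGFb plus IL6 array 1 or 3 or IL6 array 2 or 3 (0.0518 to 0.0783), and under median centring that difference was at -0.003 (adjusted p = 0.993), where the median of all genes was 0.32. Without slide B the difference from IL6 was -0.77 (limma adjusted p = 0.14). The ratio with TGFb plus IL6 lost its call without its array 1, 3 or 4 (0.0504 to 0.108). It also lost it under median centring (limma adjusted p = 0.166) and without slide B (0.191) or E (0.0536). The call of the T-effector rise from TGFb to TGFb plus IL6, 0.42 ± 0.11 (limma adjusted p = 0.0237), ended without any 1 TGFb array or TGFb plus IL6 array 1, 3 or 4 (0.0534 to 0.0811). Without slide B or E that rise did not pass either (limma adjusted p = 0.153 and 0.213).

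Abca1, the pump that loads cholesterol onto lipid-poor apolipoprotein, was higher in Treg with IL6, at ratios of 0.73, 0.24 and 1.59 and a fit of 0.95 ± 0.18 (limma adjusted p = 0.0121). Its ratios were 0.09, 1.16 and 0.64 with IL2, -0.10, 0.29 and 0.60 with TGFb and -0.24, 0.23, 0.12 and 0.04 with TGFb plus IL6, and none of these passed. In Treg samples its log2 signal was 7.71, 6.96 and 8.05 with IL6 and 6.69, 6.90, 6.72 and 6.76 with TGFb plus IL6, without overlap, a fall of 0.86 ± 0.19 (limma adjusted p = 0.0045). In T-effector samples it did not pass between any conditions, with signals of 6.20 to 7.17 over the 13 arrays. Both calls ended without IL6 array 3 (fits of 0.69 and -0.68, adjusted p = 0.18 and 0.0626) and without slide E, where IL6 keeps 1 array (0.40 and -0.28, adjusted p = 0.428 and 0.71). The pair of slide E gave a fall of 1.03 (log2 -1.03) in Treg.

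**Figure D4:**
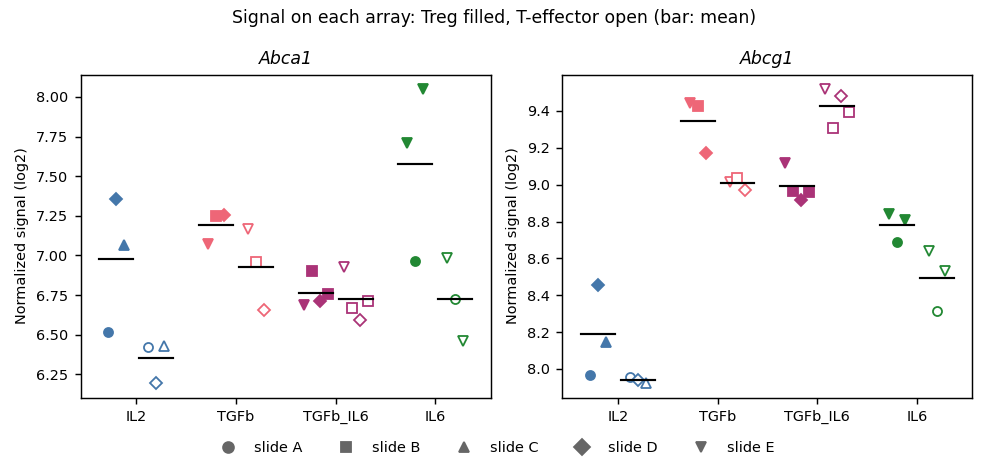
Log2 signal on each array (y axis, scaled to each gene) by condition (x axis) for the export pumps Abca1 and Abcg1, with Treg as filled and T-effector as open markers, the slide as the marker shape and the mean as a bar. For Abcg1 the open markers climb from IL2 through IL6 and TGFb to TGFb plus IL6, and the filled markers of TGFb plus IL6 lie below the open ones.

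Other genes of these pathways were counted from lists and are given here for Treg against T-effector and for T-effector samples from IL6 to TGFb plus IL6, whose shares over all genes stand above. Of 10 further sterol genes, 1 was higher and 1 lower in Treg with IL2, against 7.41 and 3.56% of all genes: Npc1, which exports cholesterol from lysosomes (0.73), and Tmem97 (-0.46). With TGFb plus IL6, 1 was lower, Npc1 (-0.73), against 2.34% of all genes. With TGFb and IL6 0 passed (2 and 5 at an unadjusted p under 0.05 by limma, where 18.9 and 22.3% of all genes were). In T-effector samples from IL6 to TGFb plus IL6, 1 was higher (Npc1, 1.1), against 5.21% of all genes, and 1 lower (Tmem97, -0.60), against 6%. Of 9 further fatty acid genes, 1 was lower in Treg with IL2 and with IL6, Acsl3 (-0.50 and -0.47), which activates long-chain fatty acids. The mitochondrial citrate carrier Slc25a1 was higher in Treg with TGFb plus IL6 (0.61), and in T-effector samples from IL6 to TGFb plus IL6 Lpin1 was the 1 lower (-0.46). Of 5 further genes tied to LXR, Nr1h2, which encodes an LXR receptor, was higher in Treg with TGFb (0.42) and with TGFb plus IL6 (0.32), and Lpcat3 was lower with IL2 (-0.52).

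Markers of other cells and of division differed between the same samples. The 10 proliferation genes had median Treg over T-effector ratios of -0.31, 0.16, 0.17 and -0.26 with IL2, TGFb, TGFb plus IL6 and IL6, the sign of the sterol median in each. The 7 markers of CD8 and NK cells had -0.39, 0.15, 0.28 and -0.33. Of these 7, 3 were lower with IL2, against 3.56% of all genes, and 1 higher with TGFb plus IL6, against 3.5%. In T-effector samples from IL6 to TGFb plus IL6, all 9 measured proliferation genes lay below 0 (median -0.17, 0 called by limma and 0 at an unadjusted p under 0.05). There, 1 of 7 CD8 and NK markers was higher (Klrd1, 1.81) and 1 lower (Prf1, -0.86), and 1 of 7 myeloid markers was higher (Mpeg1, 1.5). Of all genes, 5.21% were higher and 6% lower there. In Treg samples of that comparison 2 CD8 and NK markers were higher (Klrd1, 2.49, and Cd8a, 1.79), 1 myeloid marker was higher (Mpeg1, 0.56) and 1 of 5 stromal and erythroid markers was lower (Pecam1, -0.45). Of all genes, 4.87% were higher and 5.21% lower in Treg. The summed signal of the 7 measured B cell markers was 2872 to 3217 in T-effector samples with IL2, 1203 to 1351 with IL6, 715 to 1483 with TGFb and 647 to 1660 with TGFb plus IL6. In Treg samples it was 1302 to 2867 with IL2, 951 to 1939 with IL6, 704 to 826 with TGFb and 616 to 825 with TGFb plus IL6. Between IL6 and TGFb plus IL6, 2 of the 7 were lower in T-effector and 3 in Treg samples, against 6 and 5.21% of all genes. Of the B cell markers, Pax5 was well above background in 5 of 26 channels in all and Ebf1 in 2, while Cd79b was in 25. The part of these markers in the results was not tested.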

How the data were processed

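Each of 13 two-colour Agilent arrays carried a Treg and a T-effector sample, with Treg in Cy3 on 7 arrays and in Cy5 on 6. The dye of TGFb array 2 was taken from a label whose file name differs slightly from that of the deposited file. The deposited files hold spot intensities, mean signal and local background of each dye in scanner units, made with Agilent Feature Extraction 9.5.1.1, per the file headers. The authors also deposited a table of log2 ratios with 1 value per condition, whose scale and centring are not stated (column medians -0.0831 to -0.016; slope on the fitted ratios 1.48 to 1.74 and r across genes 0.761 to 0.824).

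Background was corrected with normexp (offset 50, its parameters estimated after setting aside spots with an irregular local background) and each array was normalised by loess (span 0.3). Of 41174 probes, those that stood well above background in 3 or more of 26 channels, with at most 3 arrays missing, were kept, and the brightest probe stood for each gene. Ratios were fitted with limma 3.58.1 in R 4.3.3 (4 conditions and a dye term, 8 residual degrees of freedom). Treg and T-effector levels between conditions were fitted by separate-channel analysis after Aquantile normalisation (intraspot correlation 0.452, 17 residual degrees of freedom), leaving out 135 genes with a missing array. Benjamini-Hochberg adjustment ran over all genes, with a threshold of 0.05. Probe names were updated through RefSeq accession (22951 probes), symbol (6659) or synonym (3109).

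The members, lists and tests were chosen with earlier results of these data known. Genes given in full were, per comparison, at most 4 called sterol enzymes by size, 2 of control and transport, 2 of fatty acid synthesis, and both export pumps. Arrays 1 to 3 of TGFb and TGFb plus IL6 share slide and dye by number, and same-numbered arrays deviated together (r 0.757, 0.728 and 0.535 for the ratio, 0.697, 0.529 and 0.4 for Treg, 0.849, 0.783 and 0.282 for T-effector), so the fit with that pair as a block is given where it ends a call. The number of arrays limits the precision: in simulated data of 19766 genes the comparison of Treg with T-effector with IL2 recovered 32 of 108 genes changed by 0.5 on the log2 scale and 76 of 92 changed by 1, and that of T-effector between IL6 and TGFb plus IL6 29 of 108 and 66 of 92. The simulation drew each array independently and changed only these genes. In the data same-numbered arrays deviated together and many more genes were called, so these shares need not hold there. Alternatives were the Agilent processed signals, other background and normalisation settings, filters, probes, dye and slide terms, removal of the spatial trend, and each array left out. Leaving out slides A, B and E and testing the other probes were added after seeing the data.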

Additional observations from a re-analysis of the deposited data

Results flagged for a closer look

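The Treg over T-effector ratio differed between conditions by limma's test for 8 values described above. From IL2 to TGFb the differences were 0.839 for Fdft1 and 0.896 for Sqle. From TGFb to TGFb plus IL6 the difference was -0.773 for Abcg1. From IL6 to TGFb plus IL6 they were -0.717 for Abcg1, 0.719 for Cyp51, 0.71 for Fdft1, 0.757 for Hmgcs1 and 0.863 for Sqle.

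Among the 4 arrays of TGFb plus IL6, 1 array stood far from the other 3 in 4 of 102 sets of values by Dixon's criterion, where chance gives about 1 in 20. The Treg log2 signal of Idi1 was 11.418 on array 2 and 11.743 to 11.758 on the others. The log2 ratio of Tm7sf2, a sterol reductase, was 0.182 on array 1 and -0.405 to -0.313 on the others. The log2 ratio of Stard4 was 1.044 on array 1 and 0.792 to 0.813 on the others. The Treg log2 signal of Scd2 was 11.838 on array 3 and 12.209 to 12.241 on the others.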

How the results depend on the processing

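None of the 49 calls of single genes reversed its direction under any of the 23 planned and 3 added alternatives, and 9 stayed past the threshold in all: Abcg1 in T-effector samples (IL2 to TGFb, IL6 to TGFb plus IL6) and in Treg (IL2 to TGFb), Cyp51, Fdft1, Lss and Pmvk in T-effector samples (IL6 to TGFb plus IL6), Hmgcs1 in the ratio with IL6 and Idi1 in the ratio with IL2. Of 1231 values of these calls, 315 no longer passed. Fits of the other probes taken singly are not among these alternatives. With its other probe the Idi1 ratio with TGFb had the opposite sign, and the other probes of Hmgcs1 did not pass with IL6. Where a count below moved, the cause was not tested.

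Counts of called genes are given in the order IL2, TGFb, TGFb plus IL6 and IL6 for Treg against T-effector, where they were 6, 2, 2 and 4. With 1 array left out they ran from 2 to 10, 0 to 4, 0 to 7 and 2 to 6. The Agilent processed signals gave 13 with IL2 and 7 with TGFb plus IL6 and with IL6. The background model fitted on all spots gave 3, 1 and 1 with IL2, TGFb and TGFb plus IL6. Median centring, under which the all-gene medians were -0.30, 0.04, -0.02 and -0.32, gave 25, 1, 0 and 26, and sterol medians of -1.23, 0.32, 0.05 and -1.23. The mean of all probes gave 0 with TGFb and 1 with TGFb plus IL6, no dye term gave 2 with IL6, and removal of the spatial trend gave 10 with IL2. Without slide A the counts were 11, 8, 11 and 7, without slide B 3, 0, 0 and 2, and without slide E 14 with IL2 and 11 with IL6.

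For differences of the ratio, the counts were 2 (IL2 to TGFb), 0 (IL2 to IL6), 1 (TGFb to TGFb plus IL6) and 5 (IL6 to TGFb plus IL6), and ran from 0 to 5, 0 to 1, 0 to 1 and 0 to 5 with 1 array left out. For IL2 to TGFb the processed signals gave 4, all spots 0, median centring 28 (median of all genes 0.43), no dye term 1, the spatial trend removed 4, and slides B and E left out 0 and 6. From TGFb to TGFb plus IL6 the processed signals, median centring, the replicate block and slides B or E left out each gave 0. From IL6 to TGFb plus IL6 all spots gave 1, median centring 21 (median of all genes 0.32), no dye term 2, and slides B and E left out 0 and 9.

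In Treg samples the counts were 2, 1, 1 and 3 in that order and ran from 1 to 4, 0 to 5, 0 to 3 and 0 to 9 with 1 array left out. Processed signals gave 4 from IL2 to TGFb, no dye term 1, slide as a block 1, and slides A and B left out 5 and 1. From IL2 to IL6 slide as a block gave 0, and slides A, B and E left out 2, 0 and 0. From TGFb to TGFb plus IL6 no filter, no dye term and the replicate block gave 0, and slides A and B left out 6 and 0. From IL6 to TGFb plus IL6 all spots and slide as a block gave 1, and slides A and B left out 15 and 1.

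In T-effector samples the counts were 3, 1, 4 and 12 and ran from 1 to 5, 0 to 1, 1 to 5 and 7 to 13 with 1 array left out. Between IL2 and TGFb, slide B or E left out gave 1. From IL2 to IL6, all spots, slide as a block and slide B or E left out gave 0. From TGFb to TGFb plus IL6 slides A, B and E left out gave 10, 0 and 2, and the replicate block 3. From IL6 to TGFb plus IL6 slides B and E left out gave 6 and 5. Of the 6 calls from TGFb to TGFb plus IL6 that were fitted with the replicate block, 3 were lost, as given in the report.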
